A study of Arabidopsis thaliana with 6 samples.

Results

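The mitochondrial genes nad3 and rps12 were followed in ribosome footprints and RNA of Arabidopsis thaliana leaves. They are 2 of the 24 mitochondrial genes with deposited levels, were taken by name, and were found in all 6 libraries and in each of the 3 tables of reading frames. Mitochondria came from the youngest leaves of plants of ecotype Col-0 aged 9 to 10 weeks. The groups were plants of the P2 phenotype and of the P3 phenotype, both with the labelled genotype Rps10 +/-, and wild-type plants (WT). P2 and P3 are therefore phenotypes of 1 mutant genotype, and the nuclear gene RPS10, whose product is the small-subunit protein S10 of mitochondrial ribosomes, was not analysed here. Each group had 1 footprint library and 1 RNA library, each made from 15 pooled preparations of mitochondria. With single libraries there is no replicate error, so differences are described without p-values. Mutant seedlings alone were selected on kanamycin at 50 mg per litre, and about 15 g of leaves went into each mutant isolation against about 30 g in WT, so these conditions and the genotype cannot be told apart.

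The 2 genes have unlike products. nad3 encodes a small membrane-arm subunit of complex I, the NADH dehydrogenase of the respiratory chain, and rps12 encodes protein S12 of the small ribosomal subunit, which sits near the decoding site. In many flowering plants the genes lie side by side and are transcribed together, and their transcripts are edited from C to U before translation. Reading frames on a shared RNA can be occupied by ribosomes to different extents, and ribosome profiling measures this by sequencing the RNA fragments that ribosomes protect from nuclease. In the TAIR10.1 gene table nad3 and rps12 are neighbours with 0 named genes between them, followed on one side by the tRNA gene trnF and on the other by ccmFN2. Plastids carry a gene of the same name, rps12, but the values here are those listed with the mitochondrial genes.

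Depth and background differed between the plant types. Mitochondrial coding sequence (CDS) drew 80146 footprint reads in P2 and 48653 in P3, against 416254 in WT, and 3126478 RNA reads in P2 and 2122781 in P3, against 1971931 in WT. Of footprint reads that mapped to the mitochondrial genome, CDS held 17.3% in P2 (95% Wilson interval 17.2 to 17.5) and 14.9% in P3 (14.7 to 15.0), against 62.6% in WT (62.5 to 62.7). Of all footprint reads after filtering, CDS held 0.530% in P2 and 0.407% in P3, against 5.37% in WT. These intervals cover counting error only. Levels are given in TPM, a share of transcripts corrected for gene length that sums to 1000000 over the 24 genes, so a gene can gain TPM when others lose footprints. Reads per gene were not analysed here, and the depth behind a single gene's level is unknown.

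The order of the pair by footprint TPM was turned round in the mutants. Footprints on nad3 stood at 22248 TPM in P2 and 17203 TPM in P3, against 66237 TPM in WT. Footprints on rps12 stood at 61658 TPM in P2 and 65618 TPM in P3, against 3649 TPM in WT. In both mutant phenotypes rps12 was thus above nad3, and in WT nad3 was far above rps12. The summed footprint TPM of the pair differed much less, at 83907 in P2 and 82821 in P3 against 69886 in WT, so that the pair held 8.39% of the footprint TPM of the 24 genes in P2 and 8.28% in P3, against 6.99% in WT. Within that sum, nad3 took 26.5% in P2 and 20.8% in P3, against 94.8% in WT. The similar size of the sums rests on the TPM scale. With TPM multiplied by the CDS share of all filtered reads, nad3 footprints were 30.2-fold below WT in P2 and 50.9-fold in P3. Those of rps12 were then only 1.67-fold and 1.36-fold higher. As nad3 held most of the WT sum, the sum was then far below WT in both phenotypes. The summed RNA TPM of the pair was 56800 in P2 and 51042 in P3, against 24896 in WT.

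In the order of the 24 genes by footprint TPM, nad3 was number 16 in P2 and 16 in P3 and number 5 in WT. In P2 it lay between atp4 (25862 TPM) and matR (13538 TPM), in P3 between matR (21283 TPM) and atp4 (16678 TPM), and in WT between atp4 (83291 TPM) and cox3 (65924 TPM). rps12 was number 5 in P2, number 3 in P3 and number 15 in WT. It lay between atp1 (76482 TPM) and cob (55337 TPM) in P2, between rpl16 (138128 TPM) and atp1 (64181 TPM) in P3, and between rps7 (4803 TPM) and rpl5 (3565 TPM) in WT. With 1 library per group the spread of a level is unknown, so the order of genes this close, such as nad3 and cox3 in WT, is not settled.

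For nad3 the footprint log2 ratio was -1.57 in P2 over WT (2.98-fold lower) and -1.94 in P3 over WT (3.85-fold lower). For rps12 it was 4.08 in P2 over WT (16.9-fold higher) and 4.17 in P3 over WT (18.0-fold higher). Genes at least 1.5-fold lower made up 29.2% of the 24 genes in either comparison, and genes at least 1.5-fold higher made up 58.3%. This balance went with the TPM scale. Median-of-ratios scaling, which sets libraries level at the median gene, gave 9 genes higher and 10 lower in P2 over WT and 11 and 10 in P3 over WT. CDS-share scaling, which multiplies the TPM of a library by the share of all its filtered reads that lay on CDS, gave 3 and 18 in P2 over WT and 3 and 19 in P3 over WT. Between the mutant phenotypes nad3 footprints had a log2 ratio of -0.37 in P3 over P2 and rps12 footprints one of 0.09, and neither reached 1.5-fold, which 20.8% of genes did upward and 8.33% downward. The P2 and P3 ratios share the WT libraries, so a deviation of a WT library would enter both.

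**Figure D1:**
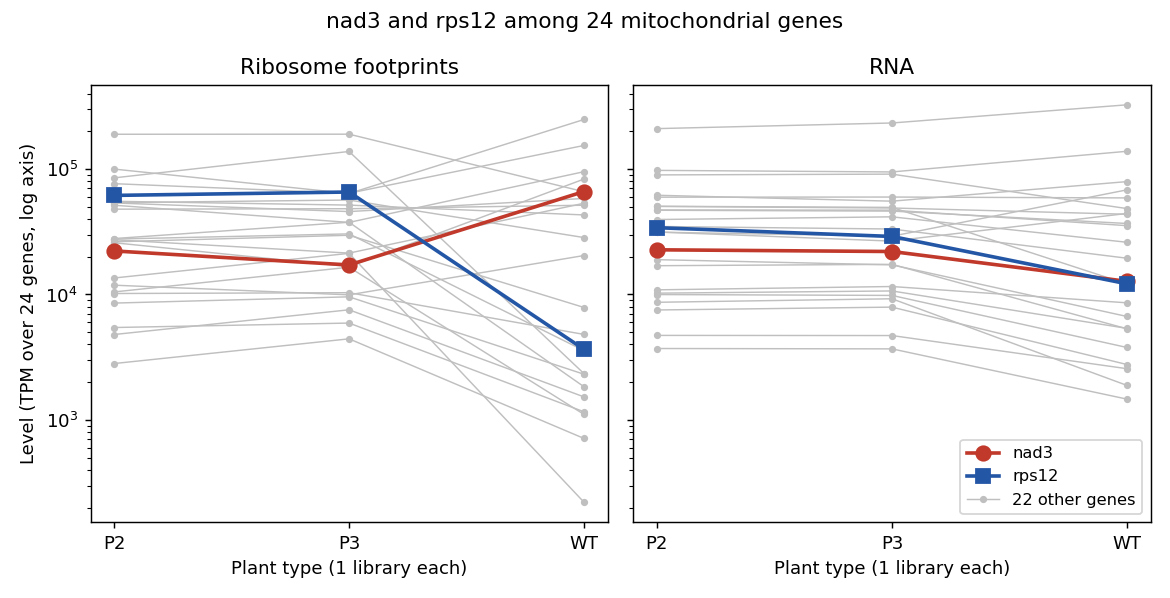
Level of each of 24 mitochondrial genes in TPM (log axis) in footprints (left) and RNA (right) for P2, P3 and WT plants, 1 library per point, with lines joining the values of a gene. Footprints of nad3 and rps12 change places between the mutants and WT. In RNA both are higher in the mutants on this TPM scale. There nad3 over rps12 is 0.666 in P2, 0.758 in P3 and 1.05 in WT.

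RNA of both genes took a larger part of the RNA TPM of the 24 genes in the mutants. nad3 RNA stood at 22714 TPM in P2 and 22015 TPM in P3, against 12731 TPM in WT, which is 1.78-fold and 1.73-fold higher. rps12 RNA stood at 34086 TPM in P2 and 29027 TPM in P3, against 12165 TPM in WT, which is 2.80-fold and 2.39-fold higher. Both members were above WT in each phenotype, as were 58.3% of the 24 genes by the 1.5-fold rule in P2 over WT and the same share in P3 over WT. The nad3 ratios (log2 0.84 in P2 over WT and 0.79 in P3 over WT) equalled those of the median gene, 0.84 and 0.78, within 0.01, and its RNA was not called higher after median-of-ratios scaling (0.0044 and 0.0018), nor after CDS-share scaling (0.54 and 0.50). With median-of-ratios scaling 6 genes were called higher and 7 lower in P2 over WT, and 5 and 7 in P3 over WT. With CDS-share scaling 11 were called higher and 5 lower in both comparisons, beside 14 and 2 on the TPM scale. rps12 RNA (1.49 and 1.25) was above the median gene by 0.65 in P2 and 0.47 in P3. In P3 over P2 the RNA log2 ratios were -0.05 for nad3 and -0.23 for rps12, and 0% of the 24 genes reached 1.5-fold in either direction.

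In the mutants nad3 RNA lay below rps12 RNA, with nad3 over rps12 at 0.666 in P2 and 0.758 in P3. In WT the RNA of the 2 genes was nearly equal, with nad3 over rps12 at 1.05 and the genes at numbers 13 and 14 of 24 in order of level. The RNA ratio of the pair was thus 1.57-fold lower in P2 than in WT and 1.38-fold lower in P3 than in WT. Of all 276 pairs of the 24 genes, 67.4% changed their RNA ratio by at least 1.5-fold in P2 over WT, and 62.0% changed it by more than this pair did. In P3 over WT 67.4% of pairs reached 1.5-fold and 75.4% changed more than nad3 and rps12. Transcripts that hold both genes and transcripts that hold 1 of them were not told apart in these levels.

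Footprints over RNA, the footprint TPM of a gene divided by its RNA TPM, is used as a relative measure of translation efficiency. For nad3 it was 0.979 in P2 and 0.781 in P3, against 5.20 in WT. For rps12 it was 1.81 in P2 and 2.26 in P3, against 0.300 in WT. nad3 was number 11 of 24 genes in P2 and number 16 in P3, while in WT it had the highest value of all, 2.77-fold above the next gene, atp4. rps12 was number 4 in both mutant phenotypes and number 20 in WT.

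The log2 ratio of footprints over RNA for nad3 was -2.41 in P2 over WT (5.31-fold lower) and -2.74 in P3 over WT (6.66-fold lower), and in both comparisons it was the lowest of the 24 genes. For rps12 it was 2.59 in P2 over WT (6.03-fold higher) and 2.91 in P3 over WT (7.54-fold higher), the third highest of 24 in both. Genes at least 1.5-fold lower made up 25% in P2 over WT and 29.2% in P3 over WT, and genes at least 1.5-fold higher made up 37.5% and 45.8%. With CDS-share scaling the counts were 1 higher and 21 lower in P2 over WT and 1 and 20 in P3 over WT, and with median-of-ratios scaling 8 and 8, and 8 and 9. The order of genes does not depend on such scaling, so nad3 was the lowest of 24 under each. Footprints over RNA also spread less over the 24 genes in the mutants. It ran from 0.235 (nad4L) to 4.02 (cox3) in P2 and from 0.203 (nad4L) to 4.03 (cox3) in P3, against 0.0330 (matR) to 5.20 (nad3) in WT. The part of this narrower spread, and of the larger share of footprint reads outside CDS, in the nad3 and rps12 values was not tested.

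In RNA and footprints nad3 went opposite ways. It was 1 of 14 genes with RNA at least 1.5-fold higher in P2 over WT and in P3 over WT, and the 1 gene among them with footprints at least 1.5-fold lower. On the deposited scale no other gene combined these calls in either comparison, although nad3 RNA is not called higher under median-of-ratios or CDS-share scaling. Opposite signs with only 1 measure past 1.5-fold were also seen for nad9 (RNA 0.89 and 0.91, footprints -0.10 and -0.09), for nad4L (RNA 0.21 and 0.17, footprints -0.79 and -1.04) and for cox1 (RNA 0.02 in both, footprints -0.89 and -1.34).

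**Figure D2:**
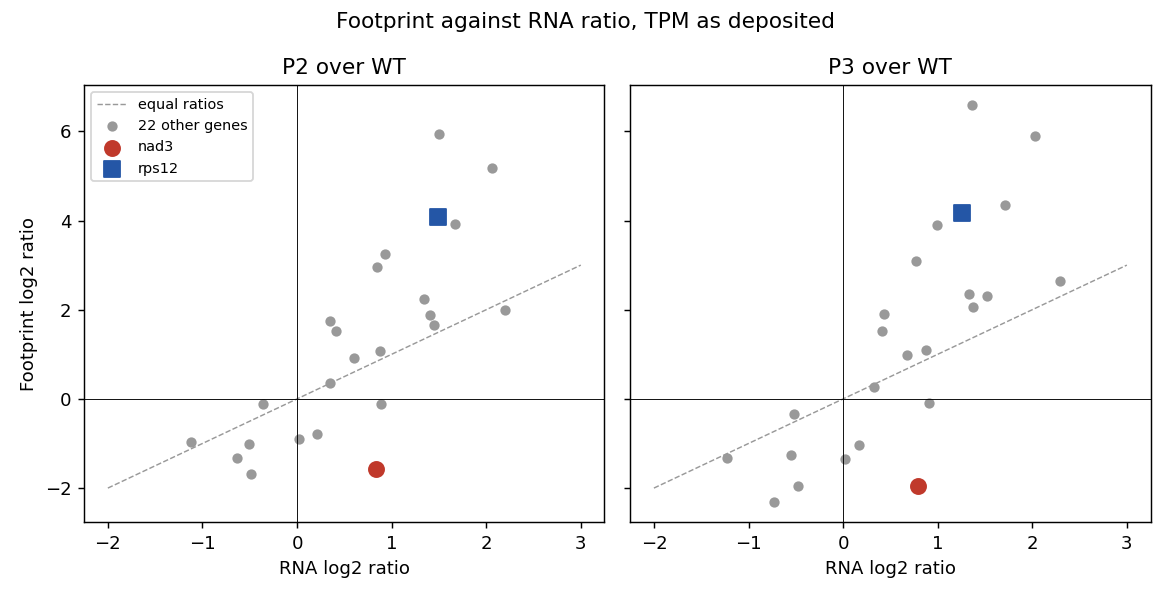
Log2 ratio of footprints (vertical) against log2 ratio of RNA (horizontal) for 24 genes, P2 over WT on the left and P3 over WT on the right, 1 library per group. The nad3 point lies to the right of 0 and well below 0 (RNA 0.84 and 0.79, footprints -1.57 and -1.94), and the rps12 point lies far above the dashed line of equal ratios.

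The direction for rps12 depended on what the libraries were scaled to. After CDS-share scaling, rps12 footprints were still 1.67-fold higher in P2 and 1.36-fold higher in P3 than in WT, but footprints over RNA of rps12 turned to log2 ratios of -0.46 and -0.52. With CDS taken as a share of mitochondrial-genome reads instead, a choice made after the data were seen, those ratios stayed positive at 1.10 and 1.23, so the direction rests on which reads the share is taken of. After scaling by the share of all filtered reads, nad3 footprints in P2 were 30.2-fold below WT, and those in P3 50.9-fold below WT. Whether more ribosomes per RNA were on rps12 in the mutants therefore cannot be read from TPM alone, whereas nad3 was lower in both mutant phenotypes than in WT in footprints and in footprints over RNA under each scaling tried. On the CDS-share scale most of the 24 genes were lower as well, by the counts given above.

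The ratio of nad3 to rps12 within a library does not depend on how that library is scaled. In footprints, nad3 over rps12 was 0.361 in P2 and 0.262 in P3, against 18.2 in WT. Put the other way, rps12 had 2.77-fold more footprint TPM than nad3 in P2 and 3.81-fold more in P3, while in WT nad3 had 18.2-fold more than rps12. The footprint ratio was 50.3-fold lower in P2 than in WT (log2 change -5.65) and 69.2-fold lower in P3 than in WT (-6.11). Divided by the RNA ratio, nad3 over rps12 was 0.541 in P2 and 0.346 in P3, against 17.3 in WT, and the changes were 32.0-fold (-5.001) and 50.2-fold (-5.65). Of the footprint change of the pair, the RNA change of -0.65 in P2 and -0.46 in P3 accounted arithmetically for a small part. Between the mutant phenotypes the footprint ratio was 1.38-fold lower in P3 than in P2 (-0.46) and the ratio per RNA 1.57-fold lower (-0.65). In P3 over P2, 33% of the 276 pairs reached 1.5-fold in footprints and 31.9% in footprints over RNA.

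**Figure D3:**
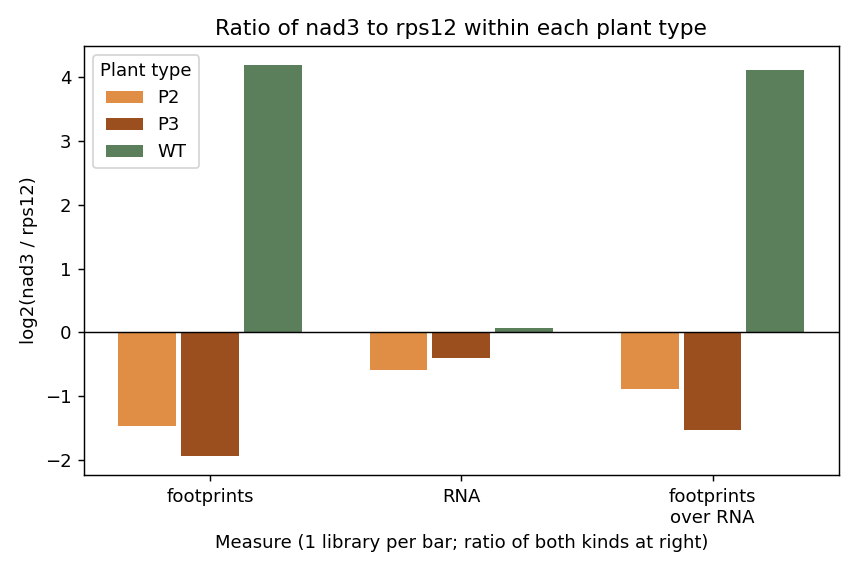
Log2 of nad3 over rps12 in footprints, in RNA and in footprints over RNA for P2, P3 and WT, 1 library per bar and the quotient of 2 libraries in the group on the right. Bars for footprints stand at -1.47 (P2), -1.93 (P3) and 4.18 (WT), and bars for RNA stay between -0.59 and 0.07.

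Changes in the ratio of gene pairs were common, and that of nad3 and rps12 was among the larger ones. In footprints 86.6% of the 276 pairs changed by at least 1.5-fold in P2 over WT and 89.9% in P3 over WT, with a median size of 2.23 and 2.61 log2 units. In P2 over WT 17 pairs, or 6.16%, changed more than nad3 and rps12, and in P3 over WT 24 pairs, or 8.70%, did so. In footprints over RNA, where 79.7% and 83.3% of pairs reached 1.5-fold, 7 pairs changed more in P2 over WT and 8 in P3 over WT. A full exchange of order was less common. Pairs with one gene at least 1.5-fold ahead in footprints in the mutant and the other at least 1.5-fold ahead in WT made up 12% of pairs in P2 over WT and 18.1% in P3 over WT, and nad3 and rps12 were among them in both. In footprints over RNA such pairs made up 19.9% and 30.1%, again with nad3 and rps12, and in RNA they made up 1.81% and 2.9%, without them.

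In footprints over RNA 2 other pairs of neighbouring genes gave smaller changes. So did ccmFN2 over its neighbour rps12, looked at after the data were seen, at -2.38 in P2 over WT and -2.13 in P3 over WT. The pair nad4L (a complex I subunit) and atp4 (an ATP synthase subunit) are adjacent in the gene table, and their ratio in footprints over RNA had a log2 change of 0.20 in P2 over WT and 0.38 in P3 over WT. The pair rpl5 (a protein of the large ribosomal subunit) and cob (cytochrome b of complex III), with the pseudogene rps14 between them, had a change of 2.10 in P2 over WT and 2.39 in P3 over WT. In RNA the changes in P2 and P3 over WT were 0.70 and 0.90 for nad4L over atp4 and 0.49 and 0.45 for rpl5 over cob, beside -0.65 and -0.46 for nad3 over rps12, so that in RNA nad4L and atp4 parted more than nad3 and rps12 did. These differences between pairs could not be tested with 1 library per group.

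**Figure D4:**
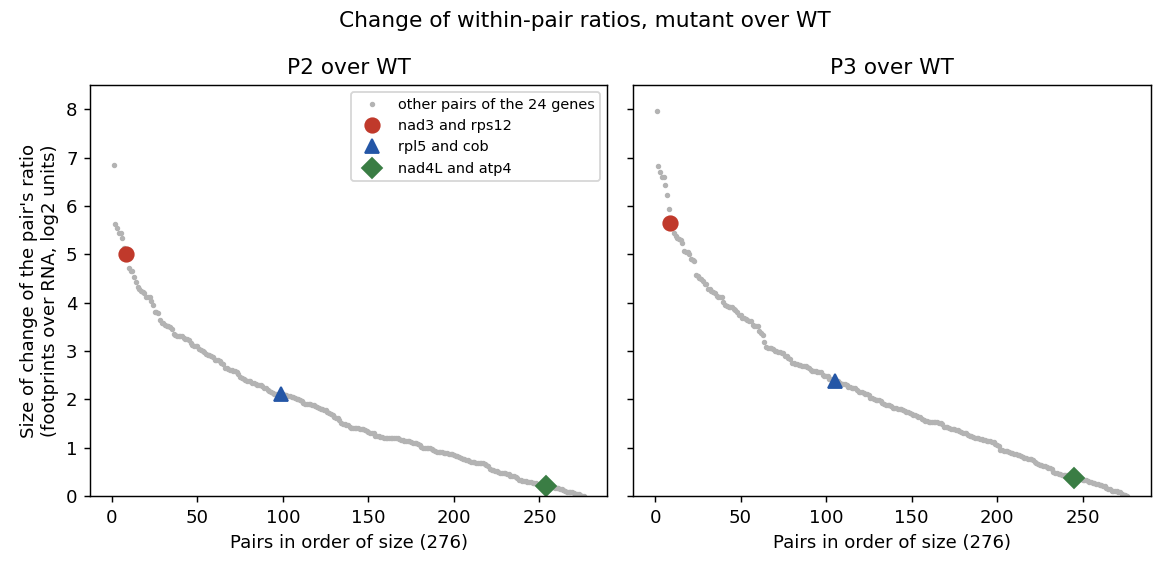
Size of the change, in log2 units, of the within-pair ratio of footprints over RNA for all 276 pairs of 24 genes, in order of size, for P2 over WT (left) and P3 over WT (right). The pair nad3 and rps12 lies at the upper end of the curve at 5.001 and 5.65, rpl5 and cob at 2.10 and 2.39, and nad4L and atp4 near the bottom at 0.20 and 0.38.

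Each gene was next set beside its own functional group. Of 9 complex I genes listed, 4 had TPM. Among the 3 besides nad3, RNA was at least 1.5-fold higher for 2 in P2 over WT and for 2 in P3 over WT, and footprints were lower for 1 (nad4L, -0.79 and -1.04) and higher for 1 (nad6, 0.92 and 0.99). Over all 24 genes the shares were 58.3% higher in RNA, and 58.3% higher and 29.2% lower in footprints. On the TPM scale these counts of 3 genes were thus near the background, but they changed with the scale. After CDS-share scaling all 3, nad6 included, were at least 1.5-fold below WT in footprints and in footprints over RNA, in both comparisons. Most of the 24 genes were lower there too. With libraries set level at the median gene, 2 of the 3 had lower footprints and 0 had higher ones in both comparisons. Their RNA was then lower for 1 and higher for 0. On the TPM scale footprints over RNA were lower for nad4L (-0.99 in P2 and -1.21 in P3) and nad9 (-0.996 in P2 and -1.004 in P3), while nad6 had 0.32 in both. The nad3 values of -2.41 and -2.74 lay below all of these, and the median over the 4 genes was -0.995 in P2 and -1.11 in P3, beside 0.23 and 0.33 over all 24 genes.

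Of 7 ribosomal protein genes listed, 5 had TPM. Footprints of all 4 besides rps12 were at least 1.5-fold higher in both comparisons. They ran from 1.08 (rps7) to 5.19 (rpl16) in P2 over WT and from 1.11 (rps7) to 5.89 (rpl16) in P3 over WT. RNA of the same 4 was also at least 1.5-fold higher in both, as was that of 58.3% of all 24 genes. The RNA log2 ratios ran from 0.84 to 2.06 in P2 over WT and from 0.77 to 2.03 in P3 over WT. Footprints over RNA were at least 1.5-fold higher for 3 of the 4, and rps7, a protein of the small subunit, had 0.20 and 0.23. The shares of all 24 genes higher were 58.3% in footprints, and 37.5% in P2 over WT and 45.8% in P3 over WT in footprints over RNA. With CDS-share scaling 1 of the 4 was higher and 1 lower in footprints in P2 over WT, and 2 and 2 in P3 over WT, while in footprints over RNA 0 were higher and 3 lower in both. On the TPM scale the median of footprints over RNA over the 5 genes was 2.26 in P2 over WT and 2.65 in P3 over WT. The values of rps12 (2.59 and 2.91) lay between those of rps4, another small-subunit protein (2.26 and 2.65), and rpl16, a large-subunit protein (3.13 and 3.86). Most rpl16 footprints lay outside frame 0, the reading frame of the gene itself, which held 23.9% in P2, 23.1% in P3 and 27.7% in WT. Frame 1 held 61.4%, 65.3% and 48.1%. How far the rpl16 values reflect translation of rpl16 was not tested.

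Setting each of the 4 complex I genes over each of the 5 ribosomal protein genes gave 20 pairs. In RNA the change was below 0 for 18 of 20 in P2 over WT, with a median of -0.73, and for 17 of 20 in P3 over WT, with a median of -0.66. In footprints the change was below 0 for 20 of 20 in P2 over WT, with a median of -4.11, and for 20 of 20 in P3 over WT, with a median of -4.36. nad3 over rps12 was the third lowest of the 20 in P2 over WT, and the fourth lowest in P3 over WT. The lowest was nad3 over rpl16 (-6.76 and -7.83) and the highest nad6 over rps7 (-0.16 and -0.11). Most rpl16 footprints lay outside frame 0, as given above. The order of the 2 genes of a pair in footprints was opposite in the mutant and in WT for 12 of the 20 pairs in P2 over WT and for 13 in P3 over WT, and by at least 1.5-fold on each side for 8 and 10, while the other 8 and 7 kept their order. Over all 276 pairs of the 24 genes, those opposite by at least 1.5-fold on each side made up 12% in P2 over WT and 18.1% in P3 over WT. The 20 pairs share genes and libraries and are no independent observations.

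Over the 6 libraries, the genes whose log2 levels were most like those of rps12 were rps4, tatC and rpl16, with Euclidean distances of 0.40, 1.06 and 1.37 log2 units after centring each gene on its mean. The nearest gene, rps4, had footprint log2 ratios of 3.93 in P2 over WT and 4.36 in P3 over WT, close to the 4.08 and 4.17 of rps12. tatC, which encodes a component of twin-arginine protein transport, had 3.25 and 3.90. No gene came as near to nad3 as rps4 did to rps12. Its nearest were cox1, a subunit of cytochrome c oxidase, at 1.22, and the ATP synthase genes atp4 at 1.46 and atp1 at 1.65. Their footprints were lower too, at -0.89 and -1.34 for cox1, -1.69 and -2.32 for atp4 and -1.01 and -1.27 for atp1. Their RNA, however, had log2 ratios from -0.73 to 0.02, below the 0.84 and 0.79 of nad3.

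The reading frame of the footprints also separated the 2 genes. Ribosomes move by codons, so footprints of translating ribosomes gather in frame 0, and fragments that do not come from translation spread over the 3 frames. For nad3, frame 0 held 44.4% of footprints in P2 and 36.7% in P3, against 63.3% in WT. For rps12, frame 0 held 49.1% in P2 and 52.3% in P3, against 57.7% in WT. Frame 0 was the largest frame of both genes in each library, but for nad3 in P3 it lay only 3.33 percentage points above the 33.3% of an even spread, with 31.3% in frame 1 and 32.0% in frame 2. For rps12 in P3, frames 1 and 2 held 20.1% and 27.6%, against 16.1% and 26.2% in WT.

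The frame 0 share of nad3 minus that of rps12 was -4.68 percentage points in P2 and -15.6 in P3, against 5.63 in WT. By frame 0 share nad3 ranked 15 of 24 genes in P2, 20 in P3 and 5 in WT, and rps12 ranked 7 in P2, 4 in P3 and 14 in WT. The median frame 0 share over the 24 genes was 47.0% in P2 and 45.0% in P3, against 59.2% in WT, so nad3 lay below the median in both mutant phenotypes and above it in WT, and rps12 the reverse.

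**Figure D5:**
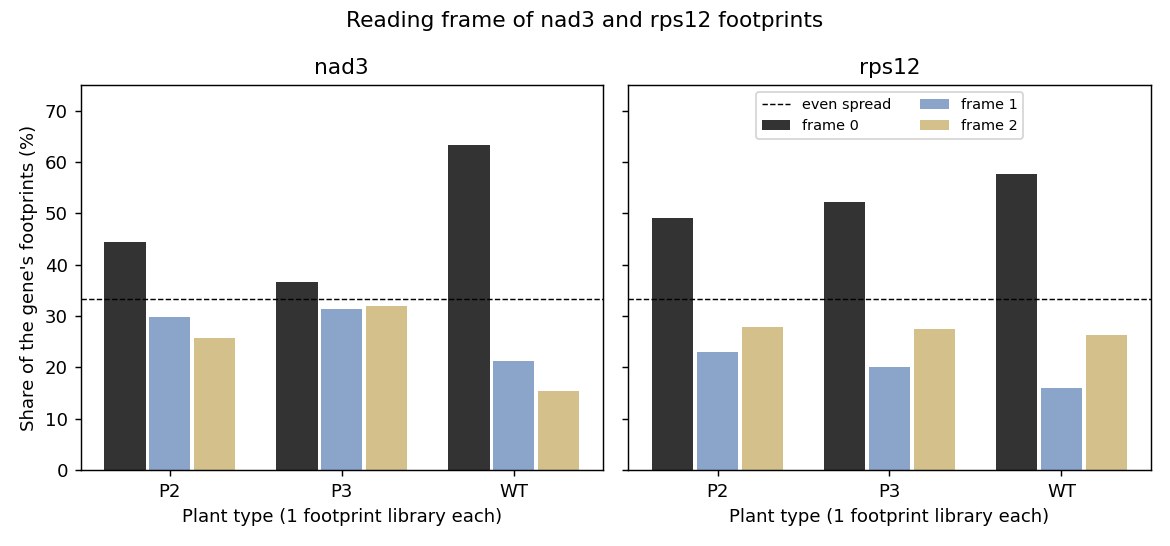
Share of footprints of nad3 (left) and rps12 (right) in frames 0, 1 and 2 for P2, P3 and WT, 1 footprint library each, with a dashed line at the 33.3% of an even spread. For nad3 the frame 0 share is 44.4% in P2 and 36.7% in P3, where the 3 frames are nearly level, against 63.3% in WT, while for rps12 it is 49.1% in P2 and 52.3% in P3, against 57.7% in WT.

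The frame 0 share was lower than in WT for all 24 genes in both mutant phenotypes, by a median of 12.1 points in P2 and 11.3 in P3. For nad3 the loss was 18.9 points in P2, the third largest of 24, and 26.6 points in P3, the largest of 24. For rps12 it was 8.56 points in P2 and 5.40 in P3, at places 17 and 20. Genes that lost at least 10 points made up 66.7% of the 24 in P2 and again 66.7% in P3, and nad3 was among them while rps12 was not. In P3 compared with P2 the nad3 share was 7.78 points lower, the largest loss of 24, and the rps12 share was 3.16 points higher.

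The tables of frames also list exons of the spliced genes, which have no TPM. Over the 56 genes and exons with values in both libraries compared, nad3 had the loss at place 19 in P2 and at place 8 in P3, and rps12 stood at places 44 and 50. The median loss of the 27 other rows of complex I genes was 17.5 points in P2 and 16.4 in P3, and the 8 other rows of ribosomal protein genes had a median loss of 10.6 and 13.8. The loss for nad3 was thus near that complex I median in P2 and above it in P3. The 8 ribosomal rows differed widely. Their changes ran from -25.5 (rps3_1) to 16.2 points (rpl2_2) in P2, and from -30.6 to -2.78 in P3 in the same rows. Among them rps7 had -21.4 and -24.4, and rpl16, at 27.7% in WT, had -3.80 and -4.57. Reads per row were not analysed here, so no interval can be set on a single share.

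Weighting footprints by their frame could not undo the exchange, since nad3 had the larger frame 0 share in WT and rps12 in both mutant phenotypes. The weighted values therefore give a size and are no check. With each TPM multiplied by the frame 0 share of its gene, nad3 over rps12 was 0.326 in P2 and 0.184 in P3, against 19.9 in WT. With the excess of frame 0 over an even spread as the weight, a choice made after the data were seen, nad3 over rps12 was 0.254 in P2 and 0.0461 in P3, against 22.4 in WT. The P3 value rests on the small excess of nad3 there.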

How the data were processed

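Gene levels were deposited by the authors as TPM, per the file headers, in 1 table per library, and sum to 1000000 over 24 genes. Frame shares were deposited as a fraction of footprints per gene, exon or open reading frame, per the file headers, and are printed as percentages. Summary sheets give whole numbers of reads per class, with the deposited fraction beside them. STAR and featureCounts are named in the submitters' processing notes. Versions, genome build, annotation, frame assignment, strand handling and read lengths were not given in the sources used here. Per the labels' protocols, mitochondria were thawed in chloramphenicol at 100 µg/ml, and footprints were isolated after nuclease treatment through a sucrose cushion.

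Log2 ratios of TPM were computed without a pseudocount, and at least 1.5-fold (0.58 on the log2 scale) counted as higher or lower. Alternatives were median-of-ratios scaling, CDS-share scaling (CDS reads over all filtered reads, or, added after the data were seen, over mitochondrial-genome reads), a total without atp9 (RNA) and cox3 (footprints), the genes with the highest mean, or without both members, a 2-fold threshold, pseudocounts of 1 and 100 TPM, a mean of at least 5000 TPM, and weighting by frame. Genes named are the members, their functional lists, 2 other neighbouring pairs, the rps12 neighbour ccmFN2, the 3 nearest genes, genes beside them in order of level, and extremes. Members, lists and pairs were chosen with earlier results of these data known. The gene table served for names and neighbours only. The computation was tested on simulated data. Python 3.11.15, numpy 2.4.6, pandas 2.3.3 and scipy 1.17.1 were used.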

Additional observations from a re-analysis of the deposited data

How the results depend on the processing

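Per-library scalings leave the ratio of nad3 to rps12 as it is. Its change in footprints ran from -6.46 to -5.61 in P2 over WT and from -8.92 to -6.07 in P3 over WT over the pseudocounts and frame weights. The frame weights could only enlarge these changes, given the frame shares of the 2 genes. In P3 over P2 the footprint change of the pair passed 1.5-fold with frame 0 weights (-0.83) and with the excess of frame 0 (-2.46). Per RNA the P3 over P2 change (-0.65) missed a 2-fold threshold, as did the RNA change in P2 over WT (-0.65).

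For nad3, RNA was not called higher in P2 or P3 over WT with median-of-ratios (0.0044 and 0.0018) or CDS-share scaling (0.54 and 0.50; 0.48 and 0.40 with CDS as a share of mitochondrial-genome reads, added after the data were seen), nor at 2-fold (0.84 and 0.79). nad3 was called lower in P3 over P2 with CDS-share scaling in footprints (-0.75) and per RNA (-0.71), with the added scaling in footprints (-0.59), and with frame 0 weights (-0.63 and -0.59). For rps12 in P3 over WT, RNA was not called with median-of-ratios scaling (0.47), nor footprints with CDS-share scaling (0.45). Per RNA, rps12 turned to -0.46 in P2 and -0.52 in P3 with CDS-share scaling, and stayed at 1.10 and 1.23 with the added one. By construction, that scaling lowers all mutant footprint values by one factor per library. The other 139 of 156 recomputed values of the 2 genes kept their direction and side of the threshold, or stayed below it.

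Relative to the median of all rows, the nad3 frame 0 change was -5.37 points in P2 and -13.3 in P3, and relative to the 24 genes -6.81 and -15.3. Among frames 0 and 1 alone it was -21.0 in P3. For rps12 these relative changes turned positive, at 4.94 and 7.98 against all rows and 3.50 and 5.94 against the 24 genes.

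A 2-fold threshold called 9 genes in RNA in P2 and in P3 over WT, and 0 in footprints and 0 per RNA in P3 over P2. In P3 over P2, median-of-ratios scaling called 3 genes and the added scaling 4 in footprints, CDS-share scaling called 7 per RNA, and leaving out the most abundant genes called 2. No paired analysis was possible because each group held 1 library. For the same reason no library could be left out. The nad3 frame shares and levels in P3 come from the footprint library with the fewest CDS reads (48653), and the depth of nad3 in it is unknown.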
